A study of Oryza sativa with 12 samples.

Results

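The change from 3 h to 12 h of dexamethasone (DEX) treatment was followed in rice shoot apices by setting the 3 arrays of DEX 12 h against the 3 arrays of DEX 3 h. All 54922 rows of the table of log2 signals were fitted, and the 15829 rows paired with a single gene are described here; they stand for 15140 genes, of which 1708 have a printable name. The 6 arrays are among 12 in 4 groups of 3, mock 3 h, DEX 3 h, mock 12 h and DEX 12 h, each array being hybridized with RNA of its own biological replicate. All seedlings were of the transgenic line *pACT1-GVG>OsWOX4:RNAi* and were 5 days old, and they were shaken in liquid MS medium with 10 μM DEX, or without it in the mock groups. The apices held the SAM and the leaf primordia. The host strain was Taichung 65, the rice actin promoter drives GVG in this line, and no array of untransformed seedlings given DEX was analysed here.

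GVG is an artificial transcription factor that DEX admits to the nucleus, where it switches on the hairpin RNA against *OsWOX4*. WOX genes encode homeodomain proteins that keep stem cells in meristems, and *OsWOX4* is known in rice for its work in the SAM and in the vascular bundles of young leaves. A shoot apex is rich in dividing cells, and its leaf primordia pass from division to expansion and to the building of chloroplasts. Because the 2 DEX groups also differ in hours spent in the flask and in the time of harvest, the mock arrays of 3 h and 12 h were used as the background for the same interval.

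Most genes measured differed between the times. From 3 h to 12 h of DEX, 57.4% of the single-gene rows passed an adjusted p of 0.05 in limma, with 3791 rows (23.9%) higher and 5289 rows (33.4%) lower at 12 h. The falls were more numerous but smaller. At a fold of at least 2 there were 1481 rises (9.36% of rows) and 1810 falls (11.4%), whereas at a fold of at least 8 there were 197 rises and 16 falls, and at a fold of at least 16 there were 69 rises and 1 fall. The split between rises and falls depended on how the arrays were scaled. The median log2 signal of an array, over all rows, was 5.64 to 5.66 in DEX 12 h and 5.72 to 5.76 in the other groups, and after quantile normalization 4821 rows were higher and 4390 lower, so that falls made up 47.7% of the calls instead of 58.2% (51.5% after median centring). The median difference over the single-gene rows then moved from -0.07 to 0.06, and directions of gene groups given below were checked against that shift. Replicate arrays of a group correlated with r of 0.982 to 0.990 over all rows. In mock 12 h, replicate 3 was at least 2-fold above both other arrays of its group in 21 single-gene rows, 12 of which were among the 197 rows that rose at least 8-fold under DEX, while in any other array at most 2 of those 197 rows were that far above. Without it, 2314 rows were higher and 3610 lower under DEX than under mock, in place of 2574 and 3905. Markers of the labelled tissue were read well: *OSH1*, *OSH15* and *OSH71* of the SAM and 9 leaf primordium markers lay above the 60th percentile of mean signal. The table names few root markers. Of them *Lsi2* (log2 difference 0.23), encoding a silicon transporter, did not pass the test, while *QHB* is described below. Another silicon transporter gene, *Lsi6* (0.07), did not pass either, but it was not among the planned root markers.

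The *OsWOX4* row had signals of 194, 245 and 262 in DEX 3 h and 364, 389 and 432 in DEX 12 h. The groups did not overlap, and the log2 difference was 0.76 (SE 0.13, adjusted p = 0.000629 in limma). In the mock arrays the signals were 117, 139.7 and 142 at 3 h and 134, 149 and 125 at 12 h, with no difference past the test (log2 difference 0.04). Every DEX 3 h array was thus already above every mock 3 h array. The row may read the hairpin transcript as well as the endogenous mRNA, so it does not check the labels and gives no measure of silencing.

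The named genes that rose most between 3 h and 12 h of DEX were dim at 3 h. All 12 had a mean signal in DEX 3 h below the median of the single-gene rows. *ML*, also called *salT*, encodes a mannose-binding lectin of stress responses, and its signals were 29.1, 27.2 and 18.7 in DEX 3 h and 1485, 1702 and 1763 in DEX 12 h. Its log2 difference of 6.07 (SE 0.16, adjusted p = 2.15e-09) was the largest rise of a named gene, and its mock arrays stayed between 24.0 and 29.1 at both times. *AOX1* encodes the alternative oxidase, which lets mitochondria pass electrons to oxygen without pumping protons. Its signals went from 38.0, 38.0 and 33.8 to 1595, 1159 and 1445, a log2 difference of 5.25 (SE 0.13, adjusted p = 2.15e-09). *OPR4*, of the family of 12-oxophytodienoate reductases, one of which acts in jasmonate synthesis, had signals of 25.4, 28.6 and 23.7 at 3 h and of 879, 791 and 1008 at 12 h (log2 difference 5.10, SE 0.21). The heat shock factor gene *HSFA4D*, known as *SPL7* because its loss causes lesions on leaves, went from 83.4, 53.6 and 64.8 to 1559, 1528 and 1659 (4.58, SE 0.24). In these 4 genes every DEX 12 h array stood apart from the 9 other arrays of the series.

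The other large rises of named genes were of mixed function. They were *Cht-3*, encoding a chitinase that attacks fungal cell walls (log2 difference 4.64), the nucleoredoxin gene *OsNrx1-1* (4.57), the β-expansin gene *EXPB6* (4.49), *PHT3* (4.47) and *SCAMP4*, encoding a carrier membrane protein of the secretory route (4.04). *TIFY11C*, a JAZ repressor of jasmonate signaling, rose by 3.97, the cystatin gene *OC-I*, whose product blocks cysteine proteases, by 3.95, and *WRKY62*, a transcription factor gene of defense responses, by 3.85. Their adjusted p-values lay at or under 3.05e-07. *EXPB6* was the least even of them at 3 h, with signals of 53.9, 32.1 and 23, against 683, 822 and 803 at 12 h. Separation of the arrays was a condition for naming these genes and adds no support, and it held for 64.8% of all single-gene rows between the 2 DEX groups and for 20.6% between the 2 mock groups.

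The largest falls of named genes began from bright signals. Over all single-gene rows, named or not, the lowest log2 difference was -6.0. *CAB2R* and *RCABP69* encode chlorophyll a/b-binding proteins of the light-harvesting antenna. *CAB2R* had signals of 509, 527 and 453 in DEX 3 h and 40.6, 48.9 and 25.3 in DEX 12 h, a log2 difference of -3.75 (SE 0.19, adjusted p = 7.43e-08). For *RCABP69* the signals were 1407, 1428 and 1308 and then 158, 89.0 and 134 (-3.48, SE 0.17). Their mock arrays were between 496 and 653 and between 1533 and 1943, so only DEX 12 h was low. *IAA10* encodes an Aux/IAA repressor of auxin signaling, and its signals of 769, 799 and 818 became 102, 72.0 and 66.9 (-3.33, SE 0.14, adjusted p = 1.93e-08). The auxin response factor gene *ARF5* went from 329, 535 and 385 to 59.9, 34.1 and 55.5 (-3.07, SE 0.24). *ER2*, a receptor-like kinase gene related to *ERECTA* of Arabidopsis, went from 1205, 1439 and 1422 to 269, 140.0 and 166 (-2.87, SE 0.19).

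The other large falls of named genes included plastid and cyclin genes. *EGY2*, a plastid membrane protease gene, fell by 2.87, *PNP1*, for a polynucleotide phosphorylase, by 2.58, and *HCF101*, needed to assemble iron-sulfur clusters of photosystem I, by 2.52. *OsICS*, for isochorismate synthase, fell by 2.59 and the aspartic protease gene *AP25* by 3.00. Of the cyclin genes, *CYCD2-2* fell by 2.63 and *CYCA3-1* by 2.52. Signals of *CYCA3-1* were 399.9, 309 and 403 at 3 h and 79.6, 53.7 and 62.4 at 12 h (SE 0.15, adjusted p = 1.70e-07). Adjusted p-values of these falls were at or under 1.25e-06.

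**Figure D1:**
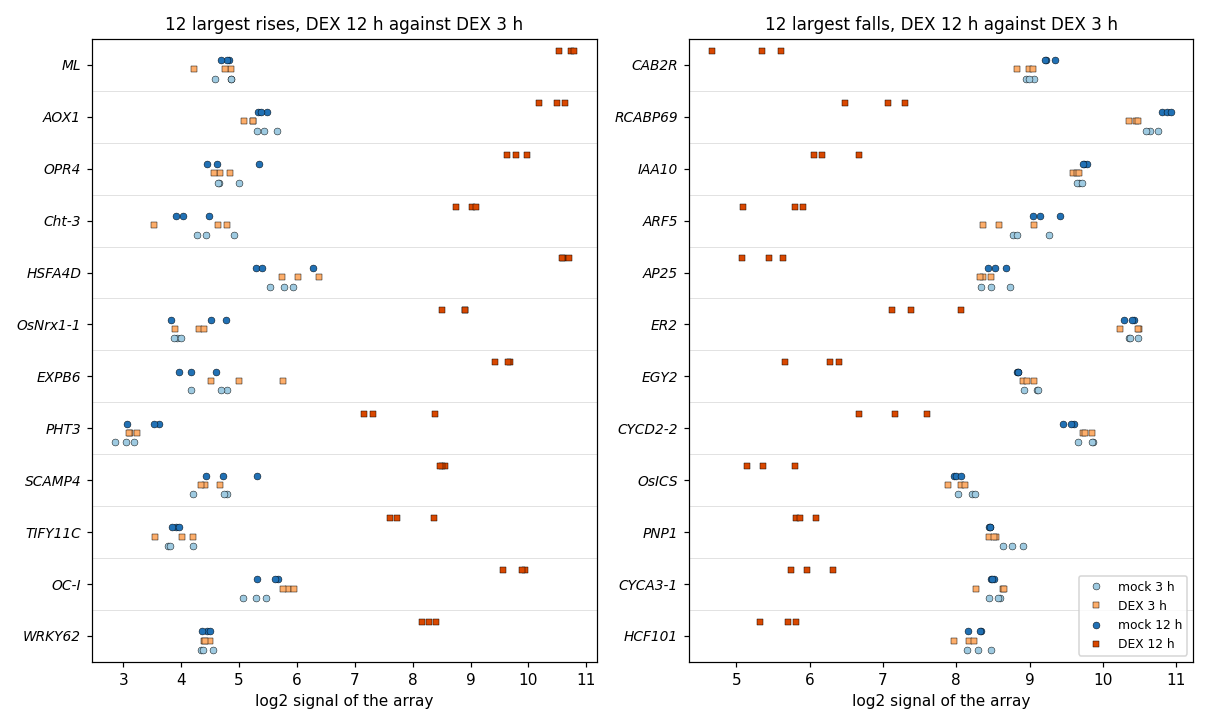
Log2 signal of each array (x axis) for the 12 named genes with the largest rises (left) and the 12 with the largest falls (right) from DEX 3 h to DEX 12 h; each point is 1 array, with 3 arrays in each of the 4 groups. The DEX 12 h arrays stand apart from the DEX 3 h, mock 3 h and mock 12 h arrays in every gene drawn.

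Differences over the same interval without DEX were smaller. No single-gene row passed the adjusted p between mock 3 h and mock 12 h (0% of rows), the smallest adjusted p being 0.168, and 1436 rows (9.07%) had an unadjusted p under 0.05. The mock groups did not overlap in 20.6% of rows, and with 3 arrays in a group small changes may have gone uncalled. The SD of the log2 differences over the rows was 0.93 in the DEX course and 0.20 in the mock course. Across the 15829 rows the courses had a Pearson correlation of 0.26, given as a description, since the rows share arrays and are not independent replicates. The difference between the courses was tested as the change under DEX minus the change under mock. By that test 40.9% of rows passed the adjusted p, with 2574 higher (16.3%) and 3905 lower (24.7%) under DEX.

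For some genes the mock values stand beside those of DEX, though none passed the adjusted test between the mock groups. *CIPK15*, a kinase gene that links low oxygen to starch use in rice seedlings, had signals of 54.1, 61.7 and 43.9 in mock 3 h and 113, 107 and 146 in mock 12 h, without overlap (log2 difference 1.20, adjusted p = 0.170). In the DEX arrays it rose from 36.9, 61.9 and 46.8 to 230.1, 219 and 362 (2.47, SE 0.23, adjusted p = 5.73e-06), and the rise was larger by 1.27 than that in mock (adjusted p = 0.0132). *ACS1*, for an enzyme of ethylene synthesis, likewise rose by 2.07 under DEX, beside a log2 difference of 0.75 in mock (adjusted p = 0.305). In *YAB1* the difference between the courses was -2.68 (adjusted p = 2.96e-06). Its signals were 128, 168 and 142 in mock 3 h and 214, 245 and 205 in mock 12 h (0.60, adjusted p = 0.226), against 145, 164 and 127 in DEX 3 h and 31.3, 35.1 and 36.5 in DEX 12 h (-2.08, adjusted p = 3.24e-07). *BU1*, encoding a helix-loop-helix protein of brassinosteroid responses, had a log2 difference of 0.96 in mock and fell by 1.05 under DEX, and these changes differed by 2.01 (adjusted p = 0.00277). *CAT-A*, for a catalase, had a difference of 0.92 in mock and -0.05 under DEX, and here too the courses differed (adjusted p = 0.0280).

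**Figure D2:**
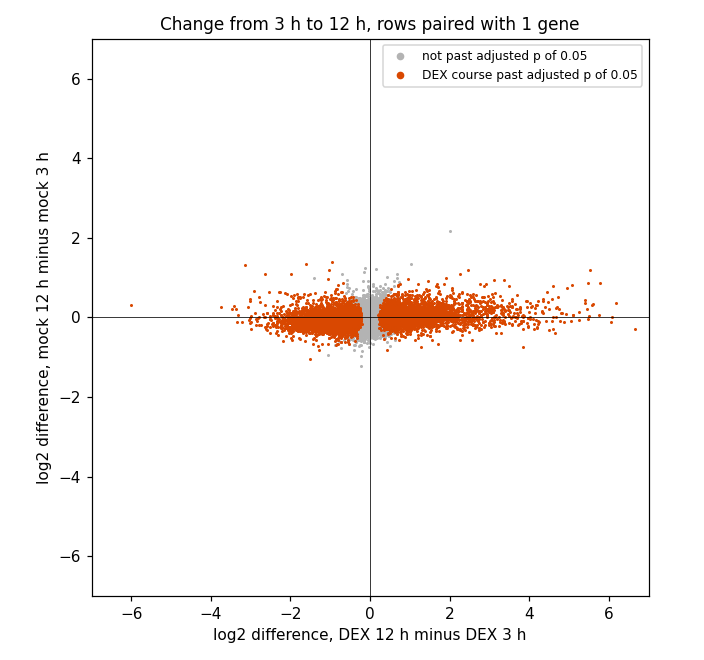
Log2 difference between 12 h and 3 h under DEX (x axis) and under mock (y axis) for the 15829 rows paired with 1 gene; each point is a row, and orange marks rows past an adjusted p of 0.05 in the DEX course. The cloud is wide along the DEX axis (SD 0.93) and narrow along the mock axis (SD 0.20).

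Genes that already stood higher in DEX 3 h than in mock 3 h show how far the response went on after its first hours. They comprised 81 single-gene rows (0.512%) at an adjusted p under 0.05, with 19 named genes among them. The DEX 3 h arrays enter both that choice and the comparison with DEX 12 h, so the values are set side by side as a description of the course. In many of the named genes the signal climbed in steps. *PSS2* had signals of 60.8, 73.8 and 61.8 in mock 3 h, 365, 213 and 155 in DEX 3 h and 1775, 2047 and 1722 in DEX 12 h. Its log2 difference between the DEX groups was 3.01 (SE 0.24). *Hox13*, a homeodomain-leucine zipper gene, went from 72.7, 68.6 and 69.5 in mock 3 h to 305, 211 and 226 in DEX 3 h and 1001, 1058 and 1130 in DEX 12 h (2.12, SE 0.13). *ASA2* encodes a subunit of anthranilate synthase, the first enzyme of tryptophan synthesis, and stood at 638, 570.2 and 484 in DEX 3 h and 3010, 3038 and 2862 in DEX 12 h (2.41, SE 0.13).

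Further increases were measured in *GL2-4*, for an epidermal class IV HD-ZIP protein (log2 difference 2.13), *EXPB11*, for a β-expansin that loosens cell walls (1.99), the heat shock factor gene *HSFA4B* (1.90), *DOF4* (1.73) and *DOF5* (1.25), for zinc finger transcription factors, and *GH3-8*, whose product joins auxin to amino acids (1.66). *PGIP-1*, for an inhibitor of pectin-degrading enzymes, was among the brightest, with signals of 2585, 2211 and 2057 in DEX 3 h and 5888, 6592 and 5930 in DEX 12 h. The kinase gene *CIPK21* (1.23), the phosphatase gene *OsPP2C09* (1.28), the zinc finger gene *OsC3H50* (1.38), *YAB5* (0.75) and *HOX3* (0.55) were also higher at 12 h.

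In *IAA26*, *OsGH3-1* and *HOX4* the signal did not climb in this way. *IAA26*, another Aux/IAA gene, had signals of 25.1, 30.8 and 39.1 in mock 3 h, 172, 90.0 and 91.1 in DEX 3 h and 43.6, 47.5 and 46.0 in DEX 12 h. The log2 difference between the DEX groups was -1.29 (SE 0.26), and because the high DEX 3 h arrays put the gene in this set, it is no test of a fall. *OsGH3-1*, which like *GH3-8* encodes an auxin-conjugating enzyme, had signals of 419.6, 301 and 327 at 3 h and 336, 247 and 214 at 12 h, and the overlapping groups gave -0.40 (SE 0.19). For the homeobox gene *HOX4* they were 498, 346 and 400.3 and then 492, 440.1 and 584 (0.29, SE 0.14).

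**Figure D3:**
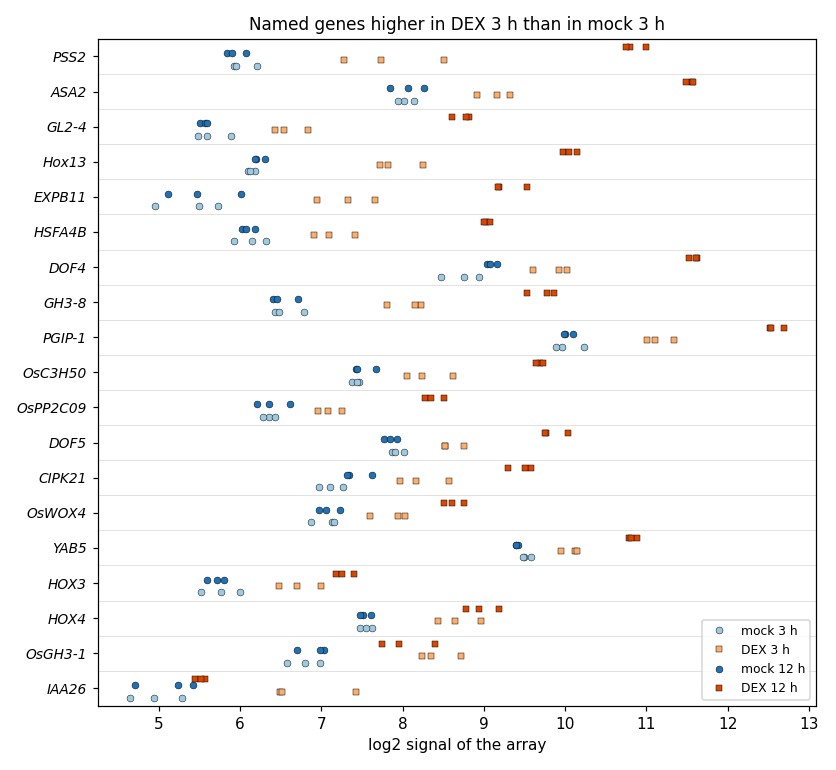
Log2 signal of each array (x axis) for the 19 named genes higher in DEX 3 h than in mock 3 h, ordered by their log2 difference from DEX 3 h to DEX 12 h; each point is 1 array, with 3 arrays in each group. *PSS2* at the top climbed by 3.01 between the DEX groups, and *IAA26* at the bottom had a difference of -1.29.

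All members of the gene lists below have a printable name. Of the 1708 genes with such a name, 31.3% were higher and 33.1% lower at 12 h, beside 23.9% and 33.4% of single-gene rows. Genes of DNA replication fell together. All 19 measured members of that list were lower at 12 h, with differences of -2.44 to -0.37 and a median of -1.51, beside a median of -0.07 over all single-gene rows. Against their mock course, 18 of the 19 were lower. *RPA1B*, for a protein that coats single-stranded DNA, had signals of 1390, 1114 and 1335 in DEX 3 h and 289, 187 and 239 in DEX 12 h. *RFC2*, of the clamp loader, fell by 2.08, *POLD1*, the catalytic subunit of DNA polymerase δ, by 2.01, *OsMCM6* of the replicative helicase by 1.85 and *ORC1* of the origin recognition complex by 1.57. In the mock course the same genes had differences of -0.27 to -0.02.

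Of 33 cyclins, cyclin-dependent kinases and their inhibitors, 19 fell and 3 rose (median -0.55). *OsRBR1*, a retinoblastoma-related gene that holds cells at the entry to S phase, went from 677, 636 and 674 to 181, 152 and 178 (-1.97, SE 0.10). The D-type cyclin gene *CYCD3-2* fell by 1.89, *CYCA3-2* by 1.80, the kinase gene *WEE1* by 1.89 and *CYCB1-1* by 1.05. *CYCB1-3* fell less, by 0.71 (SE 0.14, adjusted p = 0.00113), and its change was not past the test against the mock course (adjusted p = 0.119). The mitotic kinase *CDKB1-1* was bright and fell by 0.69. The members that rose were *CDKG-1* (1.3), *CDKF-2* (1.09) and *CYCT1-1* (0.58).

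Of 23 kinesins, a family of motor proteins with some members in the spindle and the cell plate, 21 fell and 1 rose (median -0.92). Members were taken by symbol, whatever their role, and *KIN13A*, counted as a fall, had rows with different calls. *KIN14A* went from 240.3, 219 and 273 to 73.4, 68.7 and 87.5, and *KIN7D* was the one that rose (0.55). Among tubulins and actin, 6 of 8 fell, led by *TUB2* (-1.43, signals of 1103, 933 and 1180 and then 389, 423 and 375). All 11 cytosolic ribosomal protein genes were lower, by 0.42 to 0.94, and 10 of them remained so after quantile normalization. Of 13 chromatin genes, 5 fell and 2 rose (53.8% called, near the 57.4% of all single-gene rows), with a median of -0.26 that became -0.06 after quantile normalization. *MET1B* for a maintenance DNA methyltransferase fell by 2.25 and the histone chaperone gene *FAS2* by 1.45, while *EZ1*, for a Polycomb histone methyltransferase, rose by 1.22.

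Genes for the photosynthetic apparatus were lower at 12 h in nearly all measured members. Of 10 light-harvesting and photosystem genes, 9 fell and none rose (median -1.82). Beside *CAB2R* and *RCABP69*, *OEE3* of the oxygen-evolving complex went from 463, 477 and 466 to 95.3, 93.0 and 89.3 (-2.34, SE 0.08), *LFNR1*, for ferredoxin-NADP reductase, fell by 2.25 and *PSAH* of photosystem I by 2.03. The exception was *atpI* (0.04), for a subunit of ATP synthase. Of 13 genes of chlorophyll synthesis, 11 fell and 1 rose (median -1.28). *CHL9*, a subunit of magnesium chelatase, had signals of 286, 278 and 275 at 3 h and 52.7, 63.8 and 51.3 at 12 h (-2.33), and *PPOX1* (-2.13), *PORB* (-2.08), *CHLD* (-1.75) and *CAO* (-1.44) fell with it. The early step gene *HEMB* was the one that rose (0.47). Among 4 genes of chlorophyll breakdown, *SGR*, which starts the loss of magnesium from chlorophyll, rose by 0.85, and *NOL* fell by 0.41, a call that was lost after quantile normalization (adjusted p = 0.106). The plastid glutamine synthetase gene *GLN2* fell by 1.47 and the starch genes *DPE1* and *MEX1* by 1.73 and 1.33.

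Jasmonate genes rose at several steps of the pathway. Of 13 genes listed by symbol for synthesis, 10 rose and 2 fell (median 1.20), with the same counts after either rescaling. The list takes in *OPR1*, *OPR3*, *OPR4*, *OPR5* and *OPR8* beside *OPR7*, so the count is not one of pathway enzymes alone. Allene oxide synthase makes the unstable precursor of the hormone. *AOS2* went from 15.8, 19.1 and 17.7 in DEX 3 h to 145, 200.1 and 114 in DEX 12 h (3.09, SE 0.19), and *AOS1* from 67.5, 53.7 and 73.9 to 207, 251 and 205 (1.77, SE 0.13). *AOS4* was dim, with signals of 11.3 to 15.2 in both DEX groups (-0.01). *LOX8* rose by 2.03, *AOC3*, for allene oxide cyclase, by 1.29 and *OPR7*, the reductase gene of jasmonate synthesis in rice, by 1.20. The falls were those of *OPR8* (-1.14) and of *JAR1* (-1.0), whose product joins jasmonate to isoleucine.

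JAZ proteins repress jasmonate responses, and their genes are switched on by the hormone. Of the 5 measured, 4 rose. *TIFY10C* had signals of 83.5, 63.9 and 63.4 at 3 h and 784, 1009.8 and 1081 at 12 h (3.77, SE 0.16), and *TIFY10A* and *TIFY6B* rose by 2.03 and 1.15. *TIFY6A* had a log2 difference of 0.27 (adjusted p = 0.0675), and it passed in 8 alternatives, among them median centring (adjusted p = 0.0261) and the fit without DEX 12 h replicate 1 (0.0146).

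WRKY, NAC and chitinase genes were mostly higher at 12 h. Of 5 WRKY genes, 4 rose, *WRKY71* by 3.50, *WRKY24* by 2.31 and *WRKY76* by 1.78 beside *WRKY62*. Of 7 NAC transcription factor genes, 6 rose (median 1.82), with *NAC048* going from 53.3, 68.8 and 61.3 to 366, 432 and 424 (2.74, SE 0.15). Of 8 chitinases, 7 rose and none fell. The list of pattern recognition and defense signaling had 9 rises and 4 falls among 16 genes. In it *MPK5*, a MAP kinase gene, went from 84.4, 75.5 and 64.0 to 659.7, 871 and 536 (3.19), *NPR4*, of the family of salicylic acid receptors, rose by 2.98 and *NPR1* by 1.69, whereas *LYP4*, for a receptor of chitin and peptidoglycan, fell by 1.45. Diterpenoid phytoalexins are antifungal compounds of rice. Of their 13 synthesis genes, 4 rose, none fell and 9 did not pass the test. The share of rises, 30.8%, was near the 31.3% of all named genes (23.9% of all single-gene rows). The rises included *CYP701A8* by 2.52 and the cyclase genes *CPS4* by 1.71 and *KSL7* by 1.31.

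Of 14 heat shock factor genes, 9 rose and 3 fell (median 0.90). *HSFA2B* ran against *HSFA4D* and fell by 2.04. Of 4 chaperone genes of heat shock, 2 rose and 1 fell, with *HSP81-1* at 0.67, *CLPB3* at 0.65, *HSP16.9C* at -0.23 (not past the test) and *CLPB2* at -0.77. Of 26 genes of protein folding in the endoplasmic reticulum, 12 rose (46.2%) and 4 fell (15.4%), with a median of 0.24. The sensors and factors of the unfolded protein response led them, with *BZIP60* at 1.40, *BZIP50* at 1.38 and *IRE1* at 1.03, and the disulfide isomerase genes *PDIL1-2* and *PDIL1-5* fell by 0.99 and 0.78. No member of the 8 proteasome genes passed the test (-0.23 to 0.20). Of 5 glutathione S-transferase genes, 4 rose, *GSTZ5* from 203, 216 and 167 to 1323, 1322 and 1265. Enzymes that remove superoxide and peroxide were split, with 6 rises and 6 falls among 14. The largest fall was of *APX5* (-1.38), and the largest rise was of *CAT-B* (0.88).

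Among genes studied for vascular development, *LOGL3* and *LOGL10* fell and *OsPNH1* did not pass the test. LOG enzymes release active cytokinin. *LOGL3* had signals of 184, 198 and 167 in DEX 3 h and 59.0, 42.8 and 41.2 in DEX 12 h (-1.96, SE 0.14, adjusted p = 6.62e-07). *LOGL10* lay between 91.2 and 121 at 3 h and had signals of 24.8, 28.7 and 26.6 at 12 h (-1.96, SE 0.11). Of the other members, *LOGL7* rose by 0.71 and *LOG* (0.22), *LOGL1* (-0.24) and *LOGL6* (-0.35) did not pass. *OsPNH1*, for an argonaute protein of vascular cells, had signals of 361, 295 and 369 at 3 h and 382, 317 and 324 at 12 h, which overlapped (log2 difference 0.00, SE 0.11). The 4 class III HD-ZIP genes, which act in xylem and in the upper side of leaves, all fell. *HOX9* fell by 1.44 (signals of 496, 561 and 523 and then 225.1, 164 and 199), *HOX33* by 1.08, and *HOX10* and *HOX32* by 0.76 each.

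YABBY genes, which pattern leaves, went both ways. Next to *YAB1*, *DL*, needed for the midrib, fell by 1.44 (SE 0.13), from 427, 365 and 367 to 169, 122 and 139.6. *YAB2* and *YAB3* fell by 0.89 and 0.88. *YAB4* rose by 1.45, from 324, 324 and 296 to 777, 919.7 and 879.8, and *YAB5* by 0.75. Of 7 KNOX genes, a family whose class I members keep cells of the SAM undifferentiated, *OSH15* fell by 0.94 and *OSH1* by 0.43, the latter call being lost in 8 alternatives (adjusted p = 0.0544 to 0.147). *HOS59*, *HOS66* and *HOS58* rose by 1.17, 0.98 and 0.75. In the WOX family, *QHB*, which marks the quiescent center of the root, rose from 24.4, 17.5 and 19.3 to 303, 196 and 308 (3.71, SE 0.20, adjusted p = 1.10e-07), and *WOX6* (0.01) and *WOX7* (0.05) did not pass, with signals of 12.8 to 20.4 in the DEX arrays. The summed signal of *QHB*, *Lsi2* and *Lsi6*, 113 to 129 in DEX 3 h and 305 to 417 in DEX 12 h, included only *QHB* as a gene past the test. The floral MADS gene *MADS24* rose by 3.34, from 9.11, 9.34 and 10.5 to 71.2, 90.9 and 143.

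The set taken for dividing cells held cyclins A and B, *CDKB1-1* and all named kinesins, whatever their role (28 of 32 lower and 1 higher). It summed to 17677 to 18395 in DEX 3 h and 9596 to 10368 in DEX 12 h, and to 17315 to 17676 in mock 12 h. The 4 markers of green mesophyll summed to 1942 to 2129, 203 to 283 and 2612 to 2708 in the same groups, and all 4 were lower in DEX 12 h. Of the 9 leaf primordium markers, 7 were lower and 2, *YAB4* and *YAB5*, higher, and their sums were 4545 to 4730 in DEX 3 h and 4191 to 4362 in DEX 12 h. The 3 SAM markers, of which 2 were lower, summed to 329 to 355 and 224 to 237, with 338 to 451 in mock 12 h. The 4 vascular markers (*OsWOX4*, *LOGL3*, *LOGL10* and *OsPNH1*, 1 higher and 2 lower) summed to 831 to 898 in DEX 3 h and 778 to 829 in DEX 12 h. That sum holds the *OsWOX4* row, which may read the hairpin and rose from a mean of 234 to 395. Means of *LOGL3* went from 183 to 47.7, of *LOGL10* from 104 to 26.7 and of *OsPNH1* from 342 to 341. In RNA of whole apices, fewer cells of a type and less RNA per cell cannot be told apart.

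Auxin genes went both ways. Of 19 Aux/IAA repressor genes, 9 fell, 4 rose and 6 did not pass the test, with a median of -0.30 (-0.13 after quantile normalization). *IAA24* fell by 2.40 (signals of 83.4, 109 and 97.6 and then 18.2, 16.8 and 19.6), *IAA14* by 1.95 and *IAA17* by 1.60, while *IAA18* and *IAA2* rose by 1.84 and 1.61. Of 13 auxin response factors, 4 rose and 4 fell (30.8% each, near the shares of all named genes). *ARF5* was well outside the range of the others (-0.74 to 0.85). *SAUR39* (1.95), the hydrolase gene *ILL5* (1.92) and *OsGH3-6* (1.90) rose, and *FIB*, for an enzyme of auxin synthesis, fell by 0.78. In cytokinin signaling and breakdown, 6 of 19 genes (31.6%) fell and 2 rose, a share of falls near the 33.4% of all single-gene rows, and after quantile normalization 4 fell and 3 rose. The largest falls were of the response regulators *RR22* (-1.15) and *OsRR1* (-1.14) and the phosphotransfer gene *PHP2* (-1.17).

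Of 19 brassinosteroid genes, 5 rose (26.3%) and 7 fell (36.8%), near the 31.3% and 33.1% of all named genes. The synthesis genes *CYP90B2* and *CYP724B1* rose by 2.52 and 2.09, *CYP90B2* from 28.5, 29.8 and 28.7 to 165, 186 and 149. *GSK2*, for a kinase that restrains the response, fell by 1.66 and *CYP90A3*, another synthesis gene, by 0.86. The gibberellin receptor gene *gid1* rose by 1.44 and the synthesis gene *GA20OX3* fell by 1.49. Of 11 abscisic acid genes, 2 rose (18.2%), by at most 0.61, and none fell.

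RNA silencing genes, which include those that process hairpin RNA, had 3 rises (13.6%) and 11 falls (50.0%) among 22. *AGO18*, an argonaute gene known for antiviral defense in rice, went from 45.3, 42.1 and 45.1 to 367, 358 and 332 (3.00, SE 0.23), and *DCL2A*, a Dicer-like gene, from 394, 372 and 335 to 1040.5, 1029 and 960.2 (1.46, SE 0.10). Lower members included *MEL1* (-1.60), which is named for its role in meiosis, *AGO4A* (-1.23) and *AGO7* (-1.12).

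Cell wall, transport and sugar genes changed member by member. Of 31 expansins and related genes, 11 rose (35.5%, beside 31.3% of all named genes) and 4 fell (12.9%). *EXPB3* and *EXPB2* rose by 2.76 and 2.16 and *EXPA6* fell by 2.24. *Os4CL3*, for an enzyme at the entry to lignin and flavonoids, went from 338, 211 and 169.7 to 3439, 3521 and 2917 (3.84). Trehalose phosphate is a sugar signal, and its phosphatase gene *TPP1* rose from 74.2, 93.8 and 88.1 to 795, 817 and 915 (3.31, SE 0.11), while the sucrose synthase gene *SUS1* fell from 1008, 1051 and 978 to 339, 284 and 299 (-1.72). The sugar carrier gene *SWEET15* rose by 3.37 and *SWEET11* fell by 1.22. Of 49 metal genes, 23 rose (46.9%) and 9 fell (18.4%). *HMA2*, for a zinc pump that loads the phloem at nodes, rose by 3.01, and *NRAMP5*, for a manganese transporter, fell by 1.94. Of 51 calcium sensor and kinase genes, 22 rose (43.1%) and 9 fell (17.6%), with *CIPK23*, an activator of potassium uptake, at 2.91 and *CIPK3* at -1.44. The ammonium transporter gene *AMT2-3* rose by 2.75. Of 21 potassium transport genes, 7 rose (33.3%, near the 31.3% of all named genes), none by more than 1.22. In the clock list *PRR37* fell by 1.57, from 599.8, 635 and 622 to 234, 190.3 and 203, beside a difference of -0.11 in mock. Of 26 thioredoxins and glutaredoxins, 12 rose (46.2%) and 10 fell (38.5%). The largest rise was of the glutaredoxin gene *GRXS5* (3.63), from 70.2, 103 and 72.5 to 991, 976 and 1026.

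**Figure D4:**
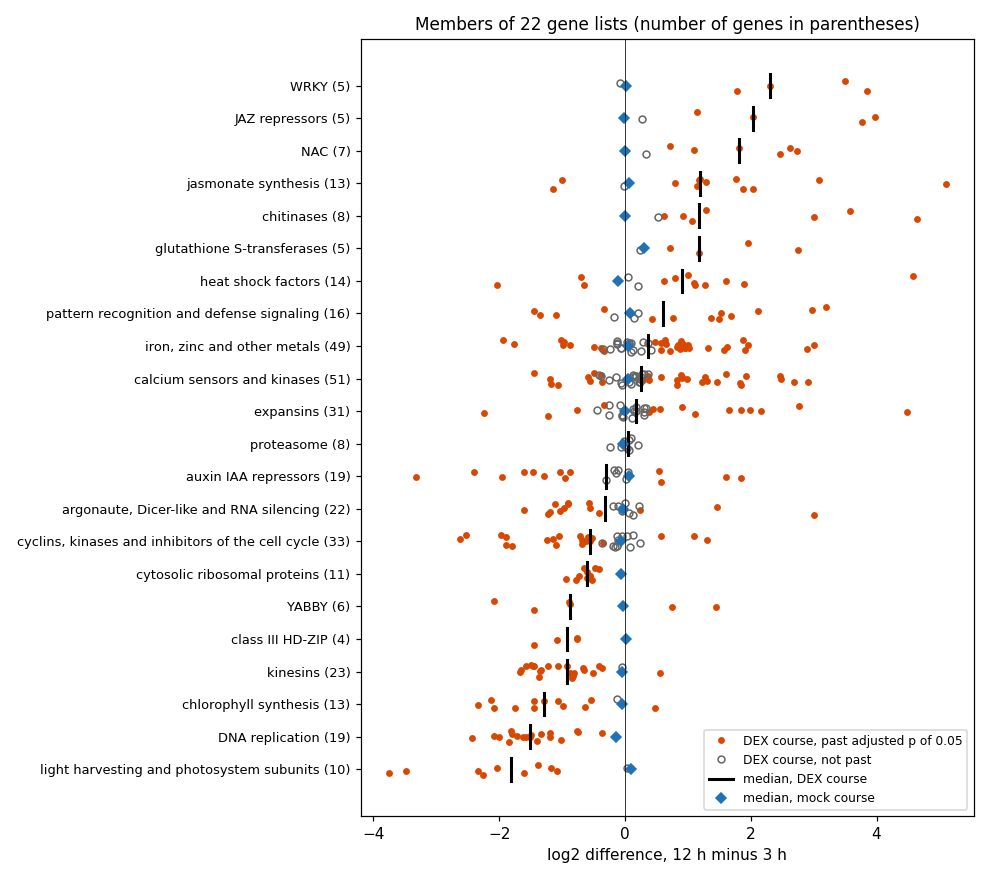
Log2 difference from 3 h to 12 h (x axis) of the members of 22 gene lists, ordered by the median of the DEX course; points are genes (filled past an adjusted p of 0.05, open otherwise), black bars the median of the DEX course and blue diamonds the median of the mock course. Medians of the DEX course run from 2.31 (WRKY) to -1.82 (light harvesting and photosystem subunits), while those of the mock course lie between -0.14 and 0.30.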

How the data were processed

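RNA of rice shoot apices was measured on Affymetrix Rice (US) Gene 1.0 ST arrays of 1 color. The authors processed the scans with the standard settings of Affymetrix Expression Console 1.3 and worked in Subio Platform. From their range, the deposited values are log2 signals, and signals in the text are these values without the log. Names came from the platform annotation (15829 rows with 1 gene, 440 with several, 38653 with none) and a gene table of assembly ASM3414082v1, which matched all 15140 genes. A gene is given by its row of highest mean; some genes have rows with different calls, none of them given with a value in the text. Members and lists were chosen with earlier results of these data known.

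Group means of the 12 arrays were compared with moderated variances (limma 3.58.1 under R 4.3.3) and Benjamini-Hochberg adjustment over all 54922 rows; the methods name no test for arrays. Named genes were those the study names, the 12 largest rises and falls past the adjusted p with arrays apart, the largest 2 each way in each of 63 lists picked by gene symbol, and falls among genes higher at 3 h. No gene was past the adjusted p in the mock course, so none was named for it. Other list members were chosen after their values were seen. Simulated data with known changes were used to check the fit. Of 67 rows changed 1.5-fold 20.9% were recovered, of 67 changed 2-fold 58.2%, and of 66 changed 4-fold 92.4%. There were 6 calls in unchanged rows. Far fewer rows were changed in the simulation than were called in the DEX course. Arrays have no read depth, and their number limits the precision. Figures were drawn with matplotlib 3.10.9 (Python 3.11.15, pandas 2.3.3, NumPy 2.4.6). No sequence was used. Alternatives are given at the end.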

Additional observations from a re-analysis of the deposited data

Results flagged for a closer look

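The change from 3 h to 12 h differed between DEX and mock, by the test of the difference itself in limma, in 2574 single-gene rows that were higher and 3905 that were lower under DEX. Each of the 12 largest rises and the 12 largest falls of named genes was among them. These genes were chosen by their DEX course, which is part of the tested difference. Their values are therefore a description and add no support. The course under DEX exceeded that under mock by 6.06 on the log2 scale in *ML*, 5.31 in *AOX1*, 5.06 in *OPR4*, 5.04 in *Cht-3*, 4.80 in *EXPB6*, 4.67 in *HSFA4D*, 4.13 in *OsNrx1-1*, 4.10 in *PHT3*, 3.99 in *TIFY11C*, 3.83 in *WRKY62*, 3.79 in *SCAMP4* and 3.69 in *OC-I*. The differences of the falls were -4.01 in *CAB2R*, -3.69 in *RCABP69*, -3.41 in *IAA10*, -3.32 in *ARF5*, -3.04 in *AP25*, -2.84 in *ER2*, -2.66 in *EGY2*, -2.48 in *HCF101*, -2.47 in *CYCA3-1*, -2.43 in *OsICS*, -2.38 in *CYCD2-2* and -2.26 in *PNP1*. *IAA26* differed from its mock course by -1.45, a value given as a description, since the gene was chosen for high DEX 3 h arrays and the same arrays enter the difference. Groups of 3 arrays were too small for a test of single arrays that stood apart.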

How the results depend on the processing

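Of 234 named genes recomputed under 24 alternatives, 218 kept their direction and their side of the adjusted p of 0.05 in all of them, 13 lost the call somewhere, 3 gained it and none reversed. Each count of rows higher or lower in the DEX course, or differing from the mock course, stayed within 1.5 times its value except where a fold of at least 2.0 was asked for. At an adjusted p under 0.05 with that fold, 1481 rows were higher and 1810 lower in the DEX course, and 1375 and 1592 differed from mock. With an unadjusted p under 0.01 and that fold these counts were 1478, 1809, 1367 and 1588, and the mock course then had 9 rows higher and 2 lower. Leaving out each array gave 3451 to 3799 rows higher and 4894 to 5265 lower in the DEX course, 2309 to 2493 and 3446 to 4035 against mock, and 0 higher and 0 to 1 lower in the mock course (1 without mock 3 h replicate 2). The median difference of the DEX course, -0.068, ran from -0.071 to -0.061 with an array left out, and was 0.012 after median centring, 0.056 after quantile normalization, -0.116 over rows above the 25th percentile and -0.203 over rows above the median. The replicate number as a block gave 3740 rows higher and 5205 lower in the DEX course and called *OsGH3-1* lower (adjusted p = 0.0173). Same-numbered arrays of the 2 DEX groups correlated at -0.00547, 0.0292 and -0.0534 in their deviations. Those of mock 3 h and DEX 3 h did so at -0.048, 0.17 and 0.0789. With 3 arrays in a group these values cannot decide whether the numbers pair the samples. The cause of the shifts between alternatives was not tested.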
